A study of Mus musculus with 16 samples.

Results

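The comparison set GFP+ cells against GFP- cells of the same filtered-air pools of mice, 8 of the 16 arrays of the series and 4 of its 8 pools. Members were taken by label: every sample whose title names vehicle, as 4 GFP+ and 4 GFP- samples that share the pool codes V2, V3, V4 and V5, called pools 1 to 4 here. All mice carried S100a5-tauGFP, a reporter in which regulatory sequence of S100a5 drives a green fluorescent protein (GFP) fused to tau, so both fractions come from reporter mice and neither is a wild type control. Each pool held the olfactory mucosa of 3 mice. The mice, of both sexes and 7 to 12 weeks old, spent 40 hours singly in chambers with clean air flowing at 3.1 L/min. From hour 26 they received a pulse of filtered air for 10 seconds every 20 min. The other arm of the study received indole/ionone in the same way, and its 4 pools served here for the estimate of the spread and for a test of the difference between arms. After dissociation the mucosa was sorted by fluorescence, and Clariom S arrays were hybridised with label made from 50 to 100 ng of total RNA. The sources used here give no gates, cell numbers or copies of the reporter allele.

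The olfactory mucosa holds sensory neurons, each expressing a single odorant receptor gene out of a very large family, beside sustentacular cells, gland cells, microvillar cells and the basal cells from which neurons are renewed. Odorant binding is passed through the G protein subunit Gnal to the adenylyl cyclase Adcy3, whose product opens a cyclic nucleotide-gated channel, and calcium entry then opens the chloride channel Ano2. S100a5 encodes a calcium-binding protein made by mature sensory neurons, and its transcript is known to rise with neuronal activity.

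Values are log2 levels per gene as deposited, and a difference is the GFP+ level minus the GFP- level within a pool, averaged over 4 pools. A difference of 1 is a 2-fold ratio. Each mean difference is given with its standard error (SE) from limma and a Benjamini-Hochberg adjusted p over 19505 genes, with 0.05 as the threshold. A gene is called higher or lower when it passed. Where 4 levels are listed they run from pool 1 to pool 4, GFP+ samples first. Levels are not compared between genes, since each probe set has its own scale.

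The 8 arrays fell apart by fraction. Correlations across genes, which are not independent replicates, were 0.990 to 0.994 among GFP+ samples, 0.985 to 0.994 among GFP- samples and 0.943 to 0.965 between fractions. Antigenomic background probes had median log2 levels of 5.63 to 6.05, and 7100 of the 19505 genes lay under the median of their array in all 8 samples. Pools 1 and 3 stood apart in some gene lists, as given below. In pool 3 the Y-linked Eif2s3y was at most 3.34 in both fractions and at least 10.47 in the other 6 samples. Kdm5d and Uty, also Y-linked, were at most 3.48 and 3.75 there, against at least 6.71 and 10.32. These genes thus lay under background in pool 3 and above it elsewhere, so pool 3 differs from the others in the sex of its mice. The part of sex in the differences below was not tested. The number of pools limits the precision.

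GFP+ and GFP- cells differed at many genes. Of 19505 genes, limma called 1728 higher in GFP+ cells, which is 8.86%, and 2107 lower, which is 10.8%. The remaining 15670 did not pass. Counts of called genes in the lists below use the values as deposited unless stated and are to be read beside these shares. Among the calls, 202 of the higher and 314 of the lower genes lay under background in all 8 samples, where a level has little meaning. The sizes were unequal: outside the receptor families, 3 of 1236 genes called higher exceeded a log2 difference of 2, against 600 of 1823 called lower. The 2 fractions did not overlap for 1263 of the genes called higher and for 1879 of those called lower. In bulk samples, fewer cells of a type and less RNA per cell cannot be told apart. The median difference over all genes was 0.11. When each array was centred on its median this became 0.45 and 10604 genes were called higher against 1661 lower, which turned the share of calls that were higher from 45.1% to 86.5%. Differences below are therefore to be read against the median of all genes. Counts of called genes in the lists depend on this scaling too, also where no centred count is given. The direction of every gene named as called was the same under that centring and under quantile normalization, but the medians of some lists of cell type and family genes below turned from negative to positive with centring: those of horizontal basal cells, neurons with guanylyl cyclase, endothelial and stromal cells, mast cells and platelets, the S100, Bcl2, regulator of G protein signalling, phosphodiesterase and formyl peptide receptor families, chemokines, histones, the unfolded protein response and antioxidant genes. Without pool 1 the number called higher was 1010, without pool 2 it was 1014, and without pool 4 1211.

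**Figure D1:**
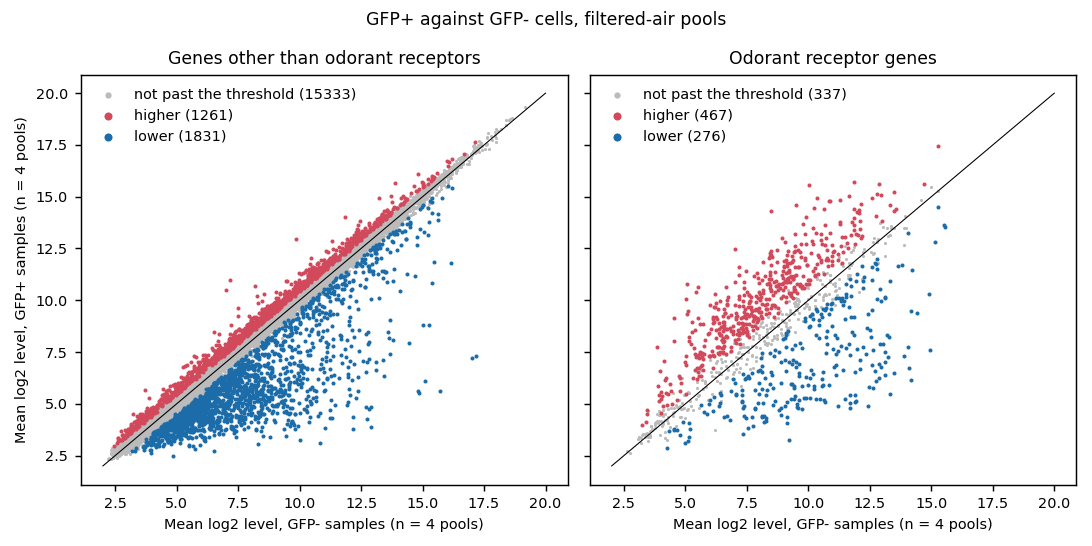
Mean log2 level of each gene in GFP+ samples (vertical) against GFP- samples (horizontal), 4 pools each, with odorant receptor genes in the right panel; red and blue points are genes called higher or lower in GFP+ cells and the line marks equal levels. The left panel also holds the trace amine-associated and vomeronasal receptors, with Taar3 at 3.78. Outside these families and the odorant receptors, points below the line lie much farther from it than points above it. Among called genes there, the largest difference is -10.08 and the largest on the other side 3.52. Odorant receptor genes spread widely on both sides.

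The reporter's own gene and the 2 markers that go with it were higher in GFP+ cells. S100a5 had log2 levels of 16.04, 16.07, 16.07 and 16.12 in the GFP+ samples, against 15.04, 14.86, 14.39 and 14.95 in GFP- samples. The GFP+ samples lay close together and above every GFP- sample, while the GFP- level of pool 3 was the low one. The difference was 1.27 ± 0.17 (SE, n = 4 pools, limma, adjusted p = 2.28e-04), a 2.41-fold ratio. Since its regulatory sequence drives the sorted reporter, this checks the sort. In GFP- samples, too, its level was far above the background.

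Lrrc3b, a leucine-rich repeat membrane protein gene raised by sensory neuron activity, had levels of 14.56, 14.27, 13.55 and 13.65 in the GFP+ samples, against 12.23, 12.52, 10.76 and 11.90 in GFP- samples. The groups did not overlap and pool 3 was again low among GFP- samples. The difference was 2.16 ± 0.20 (adjusted p = 1.11e-05). Kirrel2, an adhesion molecule by which axons of like activity sort into glomeruli, had levels of 15.20, 15.15, 14.83 and 15.01 against 13.78, 14.05, 13.24 and 13.85. Here too no sample overlapped, and the difference was 1.32 ± 0.17 (adjusted p = 1.65e-04). Kirrel3, known to be more abundant in less active axons, ran from 13.35 to 13.89 in GFP+ samples, against 13.46 to 14.29 in GFP- samples. Its groups overlapped and its difference of -0.23 ± 0.14 did not pass (adjusted p = 0.288, 95% interval -0.52 to 0.07). All 6 measured genes of the list raised by sensory neuron activity were called higher, at a median of 1.39. The list was drawn up with results of these data known, so it gives no independent evidence of its direction. Beyond the markers it held Pcp4l1, a relative of the calmodulin-binding protein Pcp4, at 1.78 ± 0.24, the protocadherin gene Pcdh10 at 1.45 ± 0.19 and Plcxd3 at 0.61 ± 0.15. The call of Plcxd3 was lost without pool 1 or 4 and without the pairing (limma adjusted p up to 0.0747).

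The promoter windows of the markers are shown because they are the sequence next to the genes that the sort rests on, and those of Fos and Btg2 because these 2 immediate early genes went the other way (below). Each runs 5′ to 3′ on the gene's strand from 250 bases before to 50 bases after the annotated start, from RefSeq on GRCm38.p6. Capitals mark TGACG, the core bound by CREB-family factors, or CCCNNGGG, the core of the Ebf motif of olfactory neurons, on either strand; adjoining or overlapping matches run together.
S100a5 (chr3:90608272-90608571, plus strand): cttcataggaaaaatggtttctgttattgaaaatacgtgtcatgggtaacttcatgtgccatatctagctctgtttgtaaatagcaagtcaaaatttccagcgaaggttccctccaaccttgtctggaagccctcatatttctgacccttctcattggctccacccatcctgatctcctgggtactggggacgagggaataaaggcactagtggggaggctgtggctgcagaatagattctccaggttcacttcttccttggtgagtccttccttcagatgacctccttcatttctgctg
Lrrc3b (chr14:15438938-15439237, minus strand): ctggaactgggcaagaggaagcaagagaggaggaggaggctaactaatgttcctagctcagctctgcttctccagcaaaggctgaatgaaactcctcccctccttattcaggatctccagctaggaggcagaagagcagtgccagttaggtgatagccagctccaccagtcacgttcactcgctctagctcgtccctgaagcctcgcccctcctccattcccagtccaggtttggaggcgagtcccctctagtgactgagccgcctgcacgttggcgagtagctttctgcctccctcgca
Kirrel2 (chr7:30457466-30457765, minus strand): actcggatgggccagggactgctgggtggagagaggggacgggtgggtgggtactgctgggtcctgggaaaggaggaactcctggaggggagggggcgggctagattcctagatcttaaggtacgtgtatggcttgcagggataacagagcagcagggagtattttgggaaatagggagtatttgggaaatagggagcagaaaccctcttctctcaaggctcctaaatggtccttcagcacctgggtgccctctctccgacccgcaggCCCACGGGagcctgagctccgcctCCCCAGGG
Fos (chr12:85473640-85473939, plus strand): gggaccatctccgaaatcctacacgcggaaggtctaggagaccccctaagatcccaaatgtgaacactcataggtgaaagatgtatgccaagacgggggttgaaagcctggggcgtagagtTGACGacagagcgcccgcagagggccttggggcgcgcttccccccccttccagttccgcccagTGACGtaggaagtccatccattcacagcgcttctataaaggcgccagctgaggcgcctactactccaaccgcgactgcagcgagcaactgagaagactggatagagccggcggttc
Btg2 (chr1:134079106-134079405, minus strand): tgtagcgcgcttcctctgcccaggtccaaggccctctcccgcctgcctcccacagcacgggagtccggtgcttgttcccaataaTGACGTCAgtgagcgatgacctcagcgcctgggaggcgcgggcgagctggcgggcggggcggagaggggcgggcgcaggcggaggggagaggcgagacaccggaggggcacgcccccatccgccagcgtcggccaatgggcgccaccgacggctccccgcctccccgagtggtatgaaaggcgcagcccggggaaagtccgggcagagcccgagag
The windows of S100a5 and Lrrc3b held 0 matches of either motif, and that of Kirrel2 held 2 of the Ebf core. Fos held 2 matches of the CREB core. Btg2 held 2 that overlap in a full palindrome. Over all 32851 promoter windows of the same length, 20.8% held the CREB core and 13.7% the Ebf core. A match is only a run of letters, and its absence says only that these letters are not in the window.

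Outside the receptor families, the 15 largest differences were taken among genes called higher with the same sign in 4 of 4 pools. They ran from 1.55 to 3.52. The fractions did not overlap for any of the 15 genes, against 1263 of the 1728 genes called higher. Choosing the largest differences favours this. Fxyd2, the regulatory gamma subunit of the sodium-potassium pump, led them. Its levels were 11.12, 10.22, 10.97 and 9.74 in the GFP+ samples, against 7.19, 7.32, 6.62 and 6.82 in GFP- samples. The GFP- samples were thus close together and the GFP+ samples more spread, with pools 1 and 3 the high ones. The difference of 3.52 ± 0.30 (adjusted p = 5.53e-06) is an 11.5-fold ratio, and pool differences ran from 2.90 to 4.35.

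Lrrc3b and Pcp4l1, given above, were also among the 15. Ptprn, a membrane protein of dense-core vesicles, had levels of 9.34, 9.35, 10.18 and 9.70 against 7.34, 7.62, 7.64 and 7.35, a difference of 2.15 ± 0.15 (adjusted p = 1.03e-06). Avp, the precursor of vasopressin, stood at 7.63, 8.49, 9.49 and 8.35 in GFP+ samples and between 6.43 and 6.62 in GFP- samples. Its GFP- samples were nearly level while GFP+ samples spread, pool 3 highest and pool 1 lowest. The mean difference was 1.98 ± 0.30 (adjusted p = 5.19e-04). Caly, a neuronal vesicle protein that takes part in endocytosis, differed by 1.76 ± 0.20.

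Ion channel subunits were also among the 15. Kcng1, a modifying subunit of voltage-gated potassium channels, had levels of 10.70, 10.48, 9.82 and 9.80 against 8.74, 8.23, 8.06 and 8.05. All pools gave a like difference, 1.74 to 2.25, and the mean was 1.93 ± 0.14 (adjusted p = 1.81e-06). Kcnmb3, an auxiliary subunit of the calcium-activated BK channel, lay at 14.85 to 15.02 in GFP+ samples, against 12.99 to 13.56 in GFP- samples, a difference of 1.69 ± 0.24 (adjusted p = 3.25e-04). The rest included the transcription factor gene Rfx4 at 1.76 ± 0.17, the glycosyltransferase gene Galnt15 at 1.61 ± 0.20, the protocadherin gene Pcdh8 at 1.58 ± 0.17, the amino acid transporter gene Slc7a8 at 1.57 ± 0.21, the coronin gene Coro6 at 1.57 ± 0.20 and the galectin-binding protein gene Lgals3bp at 1.55 ± 0.28. For Slc7a8 and Lgals3bp the GFP+ samples were nearly level and the GFP- samples were not. Lgals3bp had 6.93 in the GFP- sample of pool 1 and 9.05 in that of pool 3, and its pool differences ran from 0.89 to 2.60. Akap3, an anchor of protein kinase A known from the sperm flagellum, differed by 1.98 ± 0.17, but its levels were 5.50 to 5.88 in GFP+ samples and 3.22 to 4.01 in GFP- samples. With every level raised to at least the background median, its difference was 0.02, whereas those of the other 14 were 1.33 or more. In odor-exposed pools, which hold other mice, the 15 differences were 0.88 to 3.56.

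**Figure D2:**
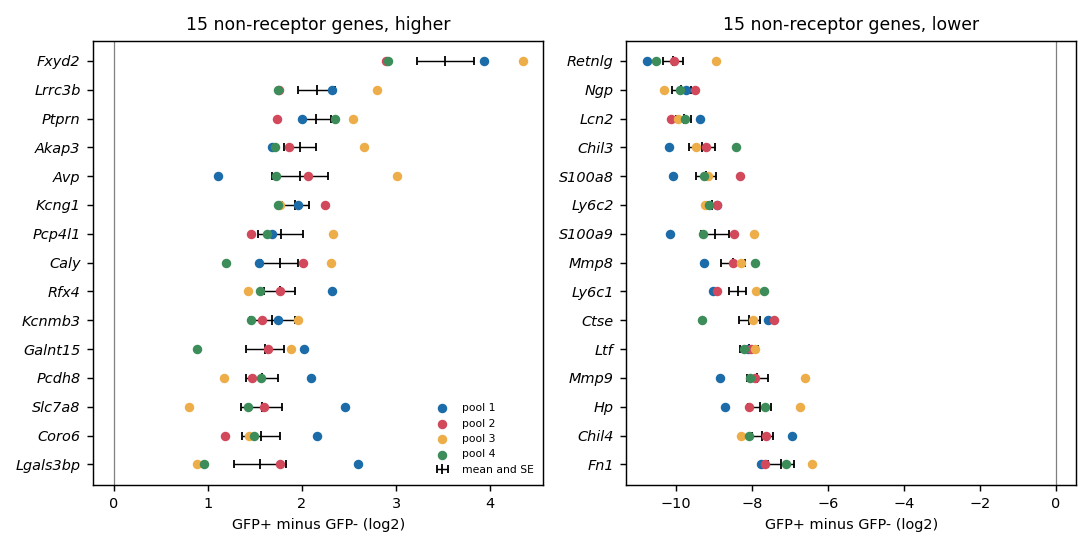
GFP+ minus GFP- log2 difference in each of 4 filtered-air pools (coloured points) with the mean and its SE (black) for the 15 genes outside the receptor families with the largest called difference in each direction. Only genes with the same sign in 4 of 4 pools were taken, so that this sign is fixed by the choice. On the left pool 3 is the highest for Fxyd2, Lrrc3b, Ptprn and Avp and the lowest for Slc7a8 and Lgals3bp. On the right every pool is under -6.

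Genes of the transduction cascade differed little, and most did not pass. Of the 14 listed genes, 1 was called higher and 0 lower, with a median of 0.22 against 0.11 for all genes. Omp, the olfactory marker protein of mature sensory neurons, had levels of 18.50, 18.46, 18.48 and 18.49 in the GFP+ samples, against 18.49, 18.11, 18.49 and 18.49 in GFP- samples. All but the GFP- sample of pool 2 were nearly equal, and they lay near 19.35, the highest value on any array. The difference was 0.09 ± 0.12 (adjusted p = 0.678, 95% interval -0.19 to 0.36). Stoml3, a stomatin-like protein of olfactory cilia, reached 19.34 in 5 samples, so that GFP+ samples were at the top of the scale. It was 18.68 in the GFP- sample of pool 2. That was also the highest value of any probe on that array, against 19.30 or more on each other filtered-air array. The part of this lower top in the pool 2 differences of Omp and Stoml3 was not tested. Adcy3 differed by 0.29 ± 0.13, Gnal by 0.28 ± 0.13, and Cnga2, the main subunit of the cyclic nucleotide-gated channel, by 0.23 ± 0.13, none of which passed. Ano2 differed by 0.38 ± 0.12 and just passed (adjusted p = 0.0494), a call lost with the 4 filtered-air pools alone in the fit, after quantile normalization and without any 1 of the 4 pools (limma adjusted p of 0.0550 without pool 3 to 0.181 without pool 2). After median centring 13 of the 14 were called higher, and after quantile normalization 0.

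Of the 23 genes for receptor transport and receptor choice, 0 were higher and 2 were lower, against 16 and 2 after median centring. The receptor chaperone genes Rtp1 and Rtp2 differed by 0.10 ± 0.13 and 0.27 ± 0.13, and the transcription factor genes Lhx2 and Ebf1 by 0.11 ± 0.13 and 0.22 ± 0.13, without passing. Lbr, the lamin B receptor, whose loss from maturing sensory neurons lets receptor gene loci gather, had levels of 10.01, 10.31, 10.16 and 9.71 in the GFP+ samples, against 12.33, 11.72, 11.64 and 11.36 in GFP- samples. Every GFP+ sample was below every GFP- sample, by -1.71 ± 0.18 on average (adjusted p = 3.38e-05). Lbr is also made by neutrophils and other leukocytes, whose markers moved the same way (below), and their part in this difference was not tested. Smchd1, a chromatin protein, was lower by -1.21 ± 0.22. None of the 6 genes that mark zones of the epithelium passed; the dorsal Acsm4 differed by -0.02 ± 0.14 and the ventral Nrp2 by 0.31 ± 0.17.

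Genes that handle calcium moved in both directions. Of the 18 measured genes of calcium extrusion and adaptation, 7 were higher and 3 lower (median 0.23). Slc8a1, a sodium-calcium exchanger, had levels of 11.53, 11.81, 11.39 and 11.24 against 10.18, 10.73, 10.77 and 10.38, with no overlap and a difference of 0.98 ± 0.16 (adjusted p = 0.00106). Slc24a4, the potassium-dependent exchanger that ends the response of sensory neurons, differed by 0.48 ± 0.13 (adjusted p = 0.0232), a call lost without pool 1, 2 or 4 and with filtered-air pools alone (limma adjusted p up to 0.120). Camk4, a calmodulin-dependent kinase gene, differed by 0.70 ± 0.19, or 0.06 with levels raised to the background, and this call was lost without the same pools (limma adjusted p up to 0.119). Rgs2, a regulator of G protein signalling, was at 3.66 to 4.77 in GFP+ samples, all under the background medians, and at 9.21 to 9.99 in GFP- samples. Its difference of -5.66 ± 0.23 became -3.90 with levels raised to the background. Camk2b was lower by -1.36 ± 0.27. Among 17 neuronal calcium-binding proteins, 5 were higher and 1 lower (median 0.33). The higher ones included Pcp4l1, named above, and Hpcal4, a hippocalcin relative, at 1.03 ± 0.17. The lower one was Calb2, calretinin, with levels of 11.68, 11.92, 11.83 and 11.70 in the GFP+ samples, against 16.08, 16.04, 16.20 and 16.26 in GFP- samples. Replicates of a fraction were within 0.3 of each other, and the difference was -4.37 ± 0.13 (adjusted p = 2.17e-09), a 20.6-fold ratio.

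The S100 family, to which the reporter gene belongs, split as well, with 4 of 17 members higher and 6 lower. S100a3, a neighbour of S100a5 in the same cluster on chromosome 3, differed by 1.02 ± 0.24 (adjusted p = 0.0105), but it lay under the background in 4 of 4 GFP- and 2 of 4 GFP+ samples and came to 0.14 with levels raised to the background, and its call was lost without pool 1 or 3 (limma adjusted p up to 0.0581). S100a8 and S100a9, the calprotectin subunits of neutrophils, were lower by -9.21 ± 0.26 and -8.98 ± 0.37. S100a11 had 7.00, 6.95, 7.41 and 7.04 in GFP+ samples against 14.87, 13.34, 12.28 and 13.11 in GFP- samples, with pool 1 the highest and pool 3 the lowest of the latter, and differed by -6.30 ± 0.37.

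Some channels that set excitability differed between the fractions. Of 90 potassium channel genes 14 were higher, or 15.6%, and 7 lower, or 7.78%, against 8.86% and 10.8% of all genes, with a median of 0.14, and 58 of the 90 lay under background in every GFP+ sample. These counts became 55 and 5 after median centring and, of the 29 that could be tested with levels raised to the background, 13 and 1. After Kcng1 and Kcnmb3, named above, came Kcnn2, a small-conductance calcium-activated channel, at 13.26, 13.21, 13.50 and 13.16 against 11.99, 12.23, 12.71 and 12.22. No sample overlapped, and the difference was 0.99 ± 0.13 (adjusted p = 1.57e-04). Kcnn4, the channel of this family known from blood cells, was lower by -2.03 ± 0.25, or -0.21 with levels raised to the background, where its call was lost (limma adjusted p = 0.31), and the two-pore channel gene Kcnk1 by -1.91 ± 0.32. Of 35 sodium and calcium channel genes 5 were higher, or 14.3%, and 0 lower, and after median centring 24 were higher. Among the 5 were Cacng7 at 1.01 ± 0.23, a call lost without pool 2 (limma adjusted p = 0.0566), and the sodium channel subunit gene Scn4b at 0.86 ± 0.13. Of the 35 GABA and glutamate receptor subunit genes, 33 lay under background in all GFP+ samples, and 0 were higher and 1 lower, against 22 and 1 after median centring. Cnr1, the cannabinoid receptor, had 8.33 to 8.43 in GFP+ samples, against 6.96 to 7.44 in GFP- samples, and differed by 1.20 ± 0.20 (adjusted p = 0.00121). It was the 1 of 16 neuromodulator and hormone receptor genes called, against 10 called higher after median centring.

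Genes of the presynaptic terminal were higher in 8 of 21 and lower in 0, with a median of 0.39, and higher in 18 after median centring. Syn1, which tethers synaptic vesicles, had levels of 11.38, 11.39, 11.07 and 11.41 in the GFP+ samples, against 9.21, 10.18, 10.71 and 10.46 in GFP- samples. The GFP- sample of pool 1 was the low one, and the groups did not overlap. The difference was 1.17 ± 0.24 (adjusted p = 0.00474). Syn2 was higher by 0.86 ± 0.15. Slc17a6, the vesicular glutamate transporter of these neurons, ran from 15.01 to 15.47 and from 15.04 to 15.31, and its difference of 0.10 ± 0.13 did not pass (adjusted p = 0.634). In 17 of the 21 genes the highest difference was that of pool 1, and the median by pool was 0.82, 0.33, 0.20 and 0.28. Markers of neutrophils moved with it, their mean level in GFP- samples of pools 1 to 4 being 12.45, 11.40, 10.49 and 11.12; their part was not tested.

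Some adhesion and guidance genes of axons differed. Among 18 adhesion genes of axon sorting 4 were higher, or 22.2% against 8.86% of all genes, and 0 lower. All 4 were protocadherins. Pcdh8 is named above, and Pcdh7 had 12.34, 12.21, 12.67 and 12.38 against 10.63, 10.95, 11.71 and 11.06, a difference of 1.31 ± 0.18 (adjusted p = 2.53e-04). Of 20 clustered protocadherin genes 6 were higher and 0 lower (median 0.55), a count that rose to 19 after median centring and 16 after quantile normalization. Pcdhb13 led them at 1.17 ± 0.15 (adjusted p = 1.58e-04), with 14 of the 20 showing their highest difference in pool 1. These genes are near-identical copies in part, so their probes may share signal. Of 21 guidance genes 5 were higher, or 23.8%, and 2 lower, or 9.52%, against 8.86% and 10.8% of all genes. Median centring gave 12 and 1. Epha5, an ephrin receptor, had 11.47, 11.10, 11.45 and 11.65 against 9.90, 10.54, 10.82 and 10.39, and differed by 1.00 ± 0.18 (adjusted p = 0.00181). Sema3a, a repulsive cue, was lower by -0.80 ± 0.16.

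Cilia genes gave small differences. Of 24 motile cilia genes 7 were higher, or 29.2% against 8.86% of all genes, and 0 lower (median 0.37). Ccdc113 differed by 0.90 ± 0.17, 6.79 to 7.25 against 5.83 to 6.27. Of 26 intraflagellar transport and BBSome genes, which build and supply the cilium, 4 were higher, or 15.4%, and 0 lower (median 0.20). Tulp3 differed by 0.84 ± 0.16. Median centring raised these counts to 20 and 23.

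Odorant receptor genes were spread more widely than other genes. Of 1080 receptors 467 were higher in GFP+ cells, or 43.2%, and 276 lower, or 25.6%, against 8.86% and 10.8% of all genes. The middle 50% of receptors ran from -0.84 to 1.66, against -0.10 to 0.29 for other genes, and the median was 0.40. Differences over 8-fold, a log2 size of 3, were held by 72 receptors called higher and 120 called lower. The pool differences correlated at 0.902 to 0.934 across receptors. Of the 743 receptors called, 723 had the same sign in 4 of 4 pools. Passing the test favours a shared sign, so this count does not show that pools were alike. Among all genes 1678 of 1728 called higher and 2070 of 2107 called lower had it too. In all 8 samples 94 receptors lay under background. Some receptors are near-identical copies, and their probes may share signal.

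**Figure D3:**
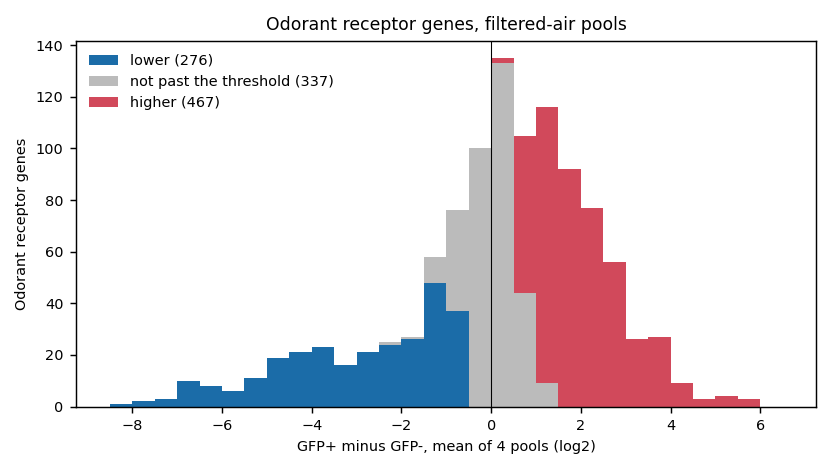
Number of odorant receptor genes by GFP+ minus GFP- log2 difference (mean of 4 filtered-air pools, bins of 0.5), coloured by whether the gene was called. The 467 receptors called higher lie mostly between 1 and 3, while the 276 called lower reach to -8.03 and hold 41 beyond -5 against 7 beyond 5 on the other side.

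Olfr536 had the largest difference among receptors called higher, with levels of 14.12, 13.94, 14.90 and 14.33 in the GFP+ samples, against 7.74, 8.02, 9.91 and 8.27 in GFP- samples. The GFP- sample of pool 3 was the high one, the fractions did not overlap, and the difference was 5.84 ± 0.27 (adjusted p = 4.64e-08). Olfr309 had 15.11 or more in each GFP+ sample, against 9.27, 10.38, 9.97 and 10.47 in GFP- samples, a difference of 5.54 ± 0.19. Olfr110 had 12.01, 12.19, 13.09 and 12.71 against 6.98, 6.62, 7.08 and 7.32, a difference of 5.50 ± 0.22. These 3 stood above background in all GFP- samples, and so did Olfr533 at 5.08 ± 0.27 and Olfr522 at 4.59 ± 0.27. The other 5 of the leading 10 were under background in 3 or 4 GFP- samples, so that their differences are bounded by it. Olfr494 moved from 5.73 to 4.99 with levels raised to the background, Olfr481 from 5.13 to 4.78, Olfr1093 from 5.01 to 4.23, Olfr372 from 4.98 to 4.61 and Olfr613 from 4.61 to 3.34. By the RefSeq annotation 7 of the 10 are on chromosome 7, which holds 230 of the 1080 receptors. On that chromosome 45.7% of receptors were called higher, against 43.2% of all receptors.

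At the other end Olfr1507 had 6.91, 6.12, 5.99 and 5.49 in the GFP+ samples, against 14.36, 14.53, 13.94 and 13.79 in GFP- samples. GFP+ samples lay around the background and GFP- samples far above it. The difference was -8.03 ± 0.21 (adjusted p = 1.33e-09), or -7.95 with levels raised to the background. Olfr99 had 6.53, 7.18, 7.10 and 6.01 against 14.50, 14.03, 13.65 and 14.17, a difference of -7.38 ± 0.35. Olfr1297 had 7.15, 8.38, 7.90 and 6.95 against 15.11, 14.84, 14.69 and 15.09, a difference of -7.34 ± 0.34. Both were above background in every sample of both fractions. Olfr460 at -7.02 ± 0.34 and Olfr1140 at -6.87 ± 0.40 were under background in 1 and 2 GFP+ samples. The other 5 were under it in 3 or 4 GFP+ samples, so that their differences are bounded by it. With levels raised to the background Olfr390 moved from -7.87 to -7.41, Olfr77 from -7.53 to -6.60, Olfr231 from -6.91 to -5.89, Olfr677 from -6.81 to -6.12 and Olfr1178 from -6.81 to -6.10. The 10 are spread over 8 chromosomes.

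Shares differed among chromosomes, given here as a description since neighbouring receptors are related in sequence. On chromosome 14, 25 of 39 receptors were higher (64.1%) and 6 lower, and on chromosome 16, 23 of 36 were higher (63.9%) and 7 lower. On chromosome 10 the order was the other way, with 12 of 65 higher (18.5%) and 30 lower (46.2%). The largest sets lay between, with 129 of 282 higher and 70 lower on chromosome 2, and 105 of 230 higher and 39 lower on chromosome 7.

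Trace amine-associated receptors, the second family of main olfactory receptors, also went both ways, with 6 of 15 higher and 5 lower. Taar3 had 11.85, 10.97, 10.19 and 10.84 in the GFP+ samples, against 5.16, 7.31, 8.55 and 7.71 in GFP- samples. Its pool differences were as unlike as 6.69 in pool 1 and 1.64 in pool 3, and the mean was 3.78 ± 0.59 (adjusted p = 6.50e-04). Taar9 was higher by 3.11 ± 0.27. Taar2 had 5.18, 6.22, 6.16 and 5.33 against 10.24, 10.86, 9.84 and 10.72, a difference of -4.69 ± 0.34 (adjusted p = 1.52e-06), and Taar6 was lower by -3.00 ± 0.39. Vomeronasal receptors, which belong to another organ, were higher in 16 of 319, or 5.02%, a share below the 8.86% of all genes, and 309 of the 319 lay under background in every GFP+ sample. With levels raised to the background 4 of them could be tested, and 0 of these 4 were called.

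Immediate early genes, the first transcripts induced by stimulation, were lower in GFP+ cells in 14 of 25 and higher in 1. These counts became 13 and 6 after median centring. Fos had levels of 11.01, 10.32, 10.76 and 11.17 in the GFP+ samples, against 16.14, 15.12, 14.97 and 15.28 in GFP- samples. Its transcript was above background in all GFP+ samples, and the fractions stood far apart. The difference was -4.56 ± 0.20 (adjusted p = 2.68e-08), a 23.6-fold ratio. Egr1 had 8.48, 7.88, 8.05 and 8.29 against 14.05, 13.30, 13.33 and 13.90, a difference of -5.47 ± 0.14. Egr2, a zinc finger factor like Egr1, had 7.41, 7.37, 7.17 and 6.09 against 13.17, 13.37, 12.55 and 13.32, a difference of -6.09 ± 0.35. Btg2, an antiproliferative gene induced with them, differed by -5.71 ± 0.21. Of the 11 genes of this list that were lower and had a promoter window, 8 held the CREB core shown above and 5 the Ebf core, against 23.0% and 15.4% of the 27025 genes of the table. Of the 8 genes of the list that were not lower, 6 held the CREB core and 1 the Ebf core, so the CREB core was about as common there. It was in 3 of 13 leading higher genes, 0 of 11 leading lower genes and 2 of 6 genes raised by activity.

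The 1 immediate early gene called higher in the values as deposited was Nptx2, a neuronal pentraxin secreted at synapses. It had levels of 12.21, 11.60, 11.08 and 11.51 in the GFP+ samples, against 10.22, 10.55, 10.54 and 10.84 in GFP- samples. Pool 1 was the high GFP+ sample and the low GFP- sample, and no sample overlapped. The difference was 1.06 ± 0.24 (adjusted p = 0.00807). Npas4, a factor specific to neurons, lay under background in all 8 samples. Genes of the response to dissociation and stress, which share members with other lists, were lower in 13 of 21 and higher in 0. Median centring gave 12 lower and 5 higher. Zfp36, which destabilises inflammatory transcripts, differed by -4.86 ± 0.21 and Ier3 by -4.54 ± 0.17. Markers of leukocytes were lower in the same samples (below), and their part in these differences was not tested.

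**Figure D4:**
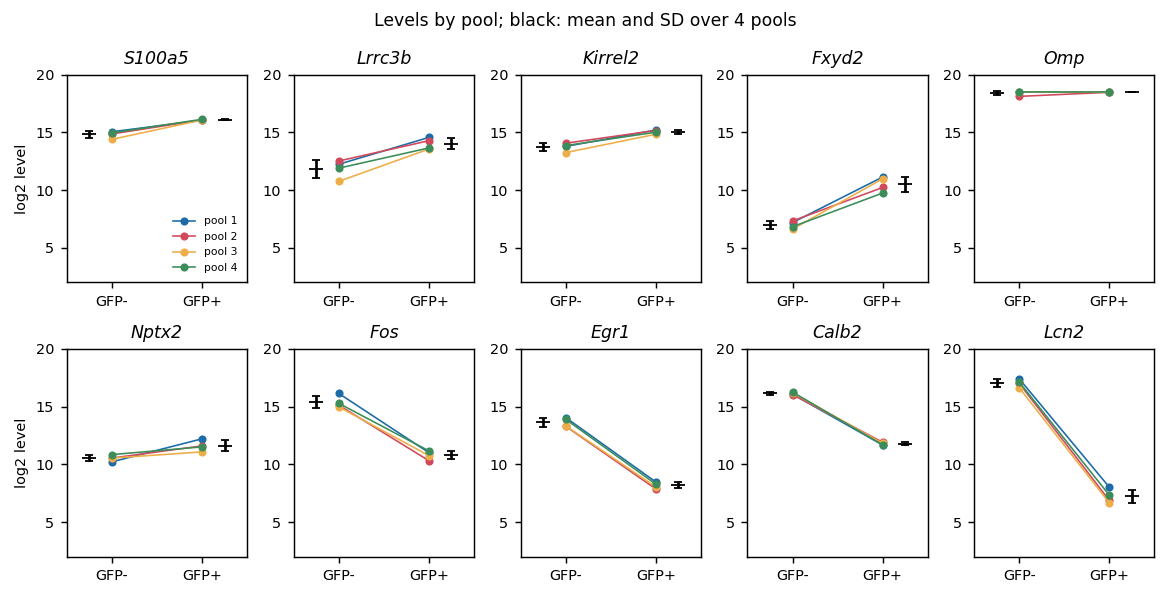
Log2 levels of 10 genes in GFP- and GFP+ samples of the 4 filtered-air pools, lines joining the fractions of a pool, with the mean and SD of each fraction in black. Levels rise from GFP- to GFP+ in every pool for S100a5, Lrrc3b, Kirrel2, Fxyd2 and Nptx2, are nearly level for Omp, and fall in every pool for Fos, Egr1, Calb2 and the neutrophil gene Lcn2.

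Part of the genes of younger neurons and of their precursors were lower. Of 21 immature neuron genes 10 were lower, 1 was higher and 10 did not pass (median -0.39), and after median centring 10 were lower and 7 higher (median -0.04). Gap43, the growth cone protein, had 6.84, 8.07, 7.59 and 7.62 in the GFP+ samples, against 9.99, 10.43, 10.55 and 10.24 in GFP- samples, a difference of -2.77 ± 0.17 (adjusted p = 3.29e-07). Nhlh1, a factor of newly formed neurons, was under background in all GFP+ samples and at 8.83 to 10.02 in GFP- samples, a difference of -4.61 ± 0.26. Cxcr4, a chemokine receptor of migrating cells, was lower by -4.88 ± 0.28 and is also made by leukocytes. The 1 higher was Trib3 at 0.65 ± 0.17, a call lost without pool 1 or 4, without the pairing and with filtered-air pools alone (limma adjusted p up to 0.113). Of 11 progenitor genes 8 were lower and 0 higher, or 5 and 1 after median centring, with Kit at -3.85 ± 0.17 and Sox2 at -1.77 ± 0.18. Of 26 cell cycle genes 22 were lower and 0 higher (median -2.01), and 15 lay under background in every GFP+ sample. Mki67, the proliferation antigen, was at 4.45 to 5.18 in GFP+ samples and at 11.11 to 11.68 in GFP- samples, a difference of -6.52 ± 0.25, or -5.63 with levels raised to the background. Of 63 histone genes 23 were lower and 3 higher, which became 22 and 25 after median centring and 24 and 9 after quantile normalization. H2ac10 differed by -3.11 ± 0.32. Erythroid and leukocyte genes were lower in the same GFP+ samples (below). Their part in the cell cycle and histone differences was not tested.

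Markers of supporting and microvillar cells were lower where they passed in the values as deposited. Of 17 sustentacular genes 9 were lower and 0 higher (median -0.73). Krt18, an epithelial keratin, had 7.35, 6.97, 7.77 and 7.02 against 12.50, 10.83, 10.49 and 10.50, with pool 1 the high GFP- sample, and differed by -3.80 ± 0.30 (adjusted p = 2.54e-06). Cyp2a5, an odorant-clearing cytochrome P450, had 12.97, 12.37, 12.79 and 12.58 against 15.22, 14.69, 14.54 and 14.71. It was well above background in GFP+ cells, and its difference was smaller, -2.11 ± 0.14. Of 16 gland and mucus genes 6 were lower, with Ltf, shared with neutrophils, at -8.08 ± 0.24 and Sox9 at -3.62 ± 0.18. Of 12 horizontal basal cell genes 4 were lower and 0 higher, and 10 of the 12 lay under background in all GFP+ samples and 10 in all GFP- samples. Icam1, at -1.19 ± 0.14, was one of those.

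Trpm5, the channel of chemosensory microvillar cells, was under background in all GFP+ samples, at 4.81 to 5.64, and at 8.44 to 9.24 in GFP- samples, a difference of -3.50 ± 0.26 (adjusted p = 1.94e-06). Of the 21 genes of these cells 16 were lower and 0 higher (median -2.03), or 15 and 4 after median centring. The most negative, Alox5ap at -5.54 ± 0.32, is made by leukocytes too. Ionocyte-like microvillar cells, which carry proton pumps and chloride channels, had 10 of 11 genes lower. Foxi1, their factor, had 7.92, 6.48, 6.23 and 6.27 against 12.87, 10.15, 10.96 and 9.77, a difference of -4.21 ± 0.37. Hepacam2 differed by -5.27 ± 0.20. Pool 1 was high in both fractions for Foxi1 and gave the most negative difference in 10 of the 11 genes of the list, whose median by pool was -4.82, -2.39, -2.51 and -2.45. Among 9 genes of neurons that use guanylyl cyclase, 4 were lower, with Pde2a, a phosphodiesterase of these neurons, at -3.64 ± 0.20, while their cyclase Gucy2d lay under background in all 8 samples.

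**Figure D5:**
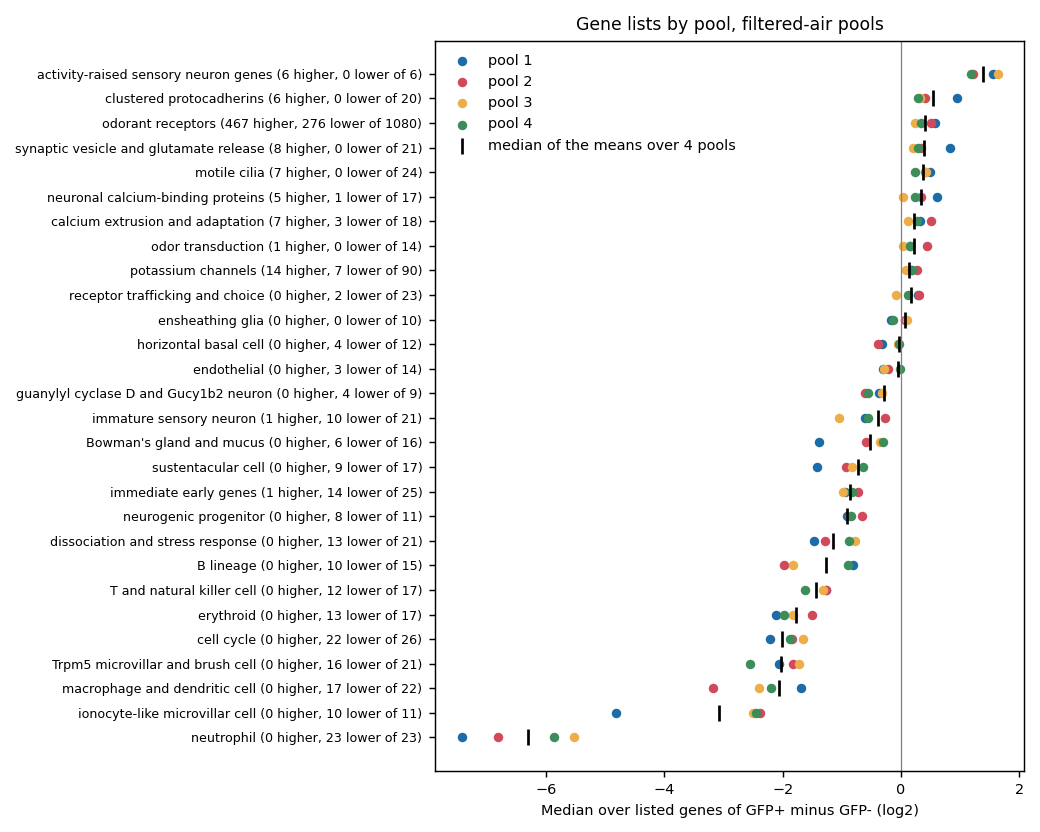
Median GFP+ minus GFP- log2 difference over the genes of each list, by filtered-air pool (coloured points), with the median of the mean differences (black); labels give the numbers of genes called. Neutrophil genes lie farthest left, from -7.43 in pool 1 to -5.52 in pool 3, and genes raised by activity farthest right, with a median of 1.39. Pool 1 stands apart for ionocyte-like, gland, sustentacular, synaptic and protocadherin genes.

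Blood cell genes gave the largest differences. All 23 measured neutrophil genes passed on the lower side (median -6.30), and 14 of them lay under background in every GFP+ sample. Of the 15 genes with the largest called negative differences outside the receptor families, 9 are on the neutrophil list. Retnlg, a resistin-like protein of neutrophils, had 6.43, 5.84, 5.39 and 4.86 in the GFP+ samples, against 17.21, 15.90, 14.34 and 15.39 in GFP- samples. GFP+ samples lay around the background, and among GFP- samples pool 1 was high and pool 3 low. The difference was -10.08 ± 0.26 (adjusted p = 1.33e-09), or -9.73 with levels raised to the background. Ngp, a granule protein, had 7.76, 7.78, 6.32 and 7.37 against 17.50, 17.27, 16.63 and 17.26, a difference of -9.86 ± 0.25. Lcn2, which binds bacterial siderophores, had 8.02, 6.87, 6.66 and 7.33 against 17.39, 17.00, 16.61 and 17.10, a difference of -9.81 ± 0.19. Ngp and Lcn2 were above background in all GFP+ samples. Chil3 at -9.33 ± 0.34, Ly6c2 at -9.05 ± 0.14, the collagenase gene Mmp8 at -8.50 ± 0.32, Ly6c1 at -8.38 ± 0.23, the cathepsin gene Ctse at -8.08 ± 0.28, Mmp9 at -7.86 ± 0.28, Hp at -7.80 ± 0.30, Chil4 at -7.73 ± 0.27 and the fibronectin gene Fn1 at -7.24 ± 0.35 followed. Ly6c2 came to -7.10, Chil4 to -5.01 and Fn1 to -5.24 with levels raised to the background.

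Other leukocyte lists were lower as well. Of 22 macrophage and dendritic cell genes 17 were lower and 0 higher (median -2.07). Lyz2, the lysozyme of myeloid cells, had 9.58, 8.09, 8.41 and 9.14 against 16.02, 15.06, 14.01 and 14.92, was above background in all 8 samples and differed by -6.20 ± 0.23. Of 15 B lineage genes 10 were lower, with Jchain at -5.56 ± 0.54. Cd79a, a B cell receptor subunit, had GFP- levels of 6.86, 9.44, 10.53 and 8.75, so that here pool 1 was the low and pool 3 the high GFP- sample, the reverse of the neutrophil genes. Of 17 T and natural killer cell genes 12 were lower, with Ptprc, found on all leukocytes, at -5.68 ± 0.15. Chemokines were lower in 10 of 36 and their receptors in 7 of 16, and Toll-like receptors in 7 of 12, with 0 higher in each. Median centring gave 8 chemokines lower and 12 higher, 5 receptors lower and 1 higher, and 6 Toll-like receptors lower and 2 higher. The histocompatibility light chain B2m had 11.98, 11.05, 12.32 and 11.96 against 15.26, 15.31, 15.78 and 15.56, and differed by -3.65 ± 0.17. In that list of 20 histocompatibility and interferon genes 9 were lower and 1 higher as deposited, or 7 and 6 after median centring. The 1 higher as deposited was Ifit1, an interferon-induced gene, at 11.72, 11.52, 10.80 and 11.32 against 9.94, 10.41, 10.03 and 10.57, a difference of 1.10 ± 0.18 (adjusted p = 9.51e-04).

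Erythroid genes were lower in 13 of 17 (median -1.78), with Car1, a carbonic anhydrase of red cell precursors, at 3.41 to 4.90 against 9.44 to 11.78 and a difference of -6.29 ± 0.49, or -4.59 with levels raised to the background. Endothelial and glial genes hardly registered in either fraction. Of 14 endothelial genes 13 lay under background in all GFP+ and 13 in all GFP- samples, and the 3 called lower, such as Pecam1 at -0.55 ± 0.15, lay among them. The call of Pecam1 was lost without pool 2 or 3 and under both other scalings (limma adjusted p up to 0.227). Of 10 ensheathing glia genes 0 were called. Of 16 stromal genes 5 were lower, Fn1 and the pericyte gene Rgs5 at -5.12 ± 0.16 being far more so than the others.

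Ribosomal protein genes, which serve translation in every cell, varied by pool. Of 63 cytosolic ribosomal protein genes 9 were lower, or 14.3% against 10.8% of all genes, and 0 were higher (median -0.49). Median centring gave 3 lower and 2 higher. The difference was lowest in pool 1 for 59 and highest in pool 3 for 62 of the 63, with medians of -1.43, -0.39, 0.26 and -0.55 in pools 1 to 4. Their mean level ran from 11.57 in pool 1 to 12.42 in pool 3 among GFP+ samples and from 12.96 to 12.11 in the same pools among GFP- samples, so that pool 1 was the lowest and pool 3 the highest among GFP+ samples and the reverse held among GFP- samples. Rplp0 was lower by -1.72 ± 0.31, with pool differences from -2.74 to -0.60. Genes of oxidative phosphorylation followed the same order of pools, with medians of -0.43, 0.23, 0.73 and 0.14, and 1 of 78 was higher and 1 lower. What set pools 1 and 3 apart was not tested, and neither was the part of the sex of the mice in pool 3.

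Against the odor-exposed pools, 0 of 19505 genes (0.0%) had a GFP+ minus GFP- difference that passed the test of the arms, with 654 at an unadjusted p under 0.05 and a lowest adjusted p of 0.0860. Without the within-pool pairing, and likewise with a variance trend in limma, 1 gene passed, the odorant receptor gene Olfr76. It differed by 1.26 ± 0.16 in filtered-air pools and by 3.11 in odor-exposed pools. Of the 3835 genes called in filtered-air pools, 3793 had the same sign in odor-exposed pools. These counts do not show that the arms are alike.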

How the data were processed

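The deposited value table holds 1 log2 level per probe set and array, made by the authors with Affymetrix Expression Console per the submitters' processing notes; the sources used here give no version or normalization, and the log base was taken from the range, 1.67 to 19.35. Of 28846 probes, 19572 carried 1 symbol in the platform annotation and 9274 none. The probe with the highest mean was kept for 55 symbols with several, which left 19505 genes, matched by identifier to RefSeq on GRCm38.p6. Differences within a pool were fitted with limma 3.58.1 (R 4.3.3) over 8 pools with 1 mean per arm, and the filtered-air mean was tested two-sided with Benjamini-Hochberg adjustment. The code was tested on simulated data.

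The fractions of a pool come from the same mice by the pool code in the titles, and their deviations from group means correlated at 0.109 to 0.208 in the 4 pools. The labels give the number 3 to 2 vehicle pools; the later one is pool 4 here. Pools are separate sets of mice, so p-values measure the spread between pools. Background is the median of 23 antigenomic probes per array. Levels raised to the background means a common floor of 5.81, an alternative added after seeing the data.

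Genes named are the markers, the 15 largest called differences in each direction outside the receptor families (predicted genes left out), the 10 largest of odorant receptors, the extremes of each gene list, members with a central role, and genes past the test of the arms. The 15 and the 10 were taken only among genes with the same sign in 4 of 4 pools. The members, lists and some central genes were chosen with earlier results of these data known. Alternatives were the fit on filtered-air pools alone, median centring, quantile normalization, leaving out dim genes, no pairing, a variance trend, the mean of a gene's probes and leaving out each pool.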

Additional observations from a re-analysis of the deposited data

Results flagged for a closer look

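Of 202 named genes tested, 16 had 1 pool far from the other 3, with a gap past the 95% critical value of Dixon's test. Chance flags about 1 in 20 groups of 4, so some flags arise among 202 genes without any cause. Differences are GFP+ minus GFP- on the log2 scale, and no cause was tested. Pool 1 stood apart for the proton pump subunit gene Atp6v0d2 at -5.71, against -2.45 to -2.28 in the other pools, and for the ionocyte gene Hepacam2 at -5.97, against -5.12 to -5.00. It was also apart for Pcdh10 at 2.14 (others 1.18 to 1.28), the ciliary gene Tulp3 at 1.22 (others 0.68 to 0.74) and the kinesin gene Kif9 at 0.84 (others 0.48 to 0.51). Pool 2 was apart for Omp at 0.35, Stoml3 at 0.66 and Cnga2 at 0.38, for Cacng7 at 1.58 (others 0.74 to 0.87) and for Ift46 at 0.84 (others 0.43 to 0.47). The GFP- array of pool 2 had a lower highest value than the other filtered-air arrays (above). Its part in the differences of Omp, Stoml3 and Cnga2 was not tested. Pool 3 was apart for Ms4a4c at -1.83 (others -4.19 to -3.90), Rgs5 at -4.57 (others -5.32 to -5.29), Plxna3 at 0.38 (others 0.78 to 0.83) and the collagen gene Col4a3 at 0.24 (others 0.79 to 0.86). Pool 4 was apart for Tekt4 at 1.29 (others 0.54 to 0.64) and Rgs7 at 1.30 (others 1.55 to 1.60).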

How the results depend on the processing

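The number of genes called higher moved from 1728 to 10604 with each array centred on its median and to 2763 with quantile normalization. Leaving out 1 pool gave 1010 (pool 1) to 1510 (pool 3), with 1014 without pool 2, on fewer samples; genes called lower ran from 1778 to 1971, receptors higher from 409 to 454 and receptors lower from 241 to 261. Without the pairing of fractions within pools, 1443 genes were higher and 2022 lower. The test of the arms gave 0 genes, but 1 without the pairing and 1 with a variance trend in limma. Leaving out dim genes gave 1687 higher and 1450 lower among fewer genes tested, so that 53.8% of calls were higher; the floor at background gave 1715 and 1526, or 52.9%. Quantile normalization gave 58.4%. Of 182 named genes called, 147 kept the call under each of the 12 alternatives that tested them, 35 lost it under at least 1, and 0 changed direction. The causes were not tested. Signals near the background bound the size of a difference.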

Other observations

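Further gene families showed a few called members each. Of 21 regulators of G protein signalling 8 were lower and 1 higher in GFP+ cells, or 8 and 6 after median centring. The exception, Rgs7, a partner of neuronal G proteins, was higher by 1.51 ± 0.14 (SE, n = 4 pools), while Rgs13 was lower by -4.10 ± 0.37. Phosphodiesterases, which break down cyclic nucleotides, split with 4 of 21 higher and 4 lower, or 10 and 4 after centring, Pde10a at 1.02 ± 0.31 and Pde4a at 0.64 ± 0.17 against Pde4b at -2.93 ± 0.23. Cytochrome P450 genes were higher in 7 of 89 and lower in 9, or 42 and 6 after centring each array on its median. Cyp26b1, which degrades retinoic acid, was higher by 1.14 ± 0.18, and Cyp1a2 was lower by -2.11 ± 0.15. Glutathione, glucuronosyl and sulfotransferase genes, which conjugate foreign compounds, were lower in 13 of 52 and higher in 0, or 10 and 21 after that centring, with Sult1c1 at -3.01 ± 0.32. Of 22 proton pump subunits 3 were lower, with Atp6v1c2 at -1.48 ± 0.24, and 1 was higher, Atp6v1g2 at 0.64 ± 0.18, while centring gave 2 lower and 14 higher.

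Keratins and claudins were lower in 11 of 70 and higher in 2, or 9 and 32 after centring, with Krt8, the partner of Krt18, at -3.16 ± 0.29. Kinesins were lower in 13 of 35 and higher in 1, or 11 and 16 after centring, with the mitotic motor gene Kif11 at -2.60 ± 0.22. Ms4a genes were lower in 7 of 18 and mast cell, eosinophil, basophil and platelet genes in 4 of 15, with 0 higher in either, or 5 higher in each after centring, with Cpa3 at -2.09 ± 0.28. Of 15 Bcl2 family genes 4 were lower and 0 higher, or 2 and 7 after centring, with Mcl1, a survival factor, at -1.27 ± 0.16. Antioxidant genes split with 2 of 11 higher and 2 lower, and the unfolded protein response gave 1 of 15 each way, Dnajb9 at 0.56 ± 0.17 and Edem1 at -0.98 ± 0.17. Transient receptor potential channels gave 1 of 27 each way, collagens 1 of 42 higher and formyl peptide receptors 0 of 3. After centring these channels had 14 higher and 1 lower, collagens 18 higher and formyl peptide receptors 1. The unfolded protein response then had 5 higher and 1 lower, and antioxidant genes 3 and 2. The calls of Pde10a, Pde4a, Atp6v1g2 and Dnajb9 were each lost without pool 1 and without pool 2, among other settings, with limma adjusted p up to 0.149, 0.121, 0.145 and 0.187. The shares over all genes were 8.86% higher and 10.8% lower.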
